A study of Homo sapiens with 6 samples.

Results

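The DNA replication machinery was described here as 44 named genes, taken as a fixed list: the subunits of the replication fork, the factors that license and fire origins, the enzymes of nucleotide supply and the E2F factors and other regulators of S phase entry. Each gene was represented by its transcript cluster (the array's unit for a gene) with exactly 1 gene symbol and, where a gene had several, by the brightest, as was needed for UHRF1 alone. All 44 genes were measured, of 18417 genes and 19460 transcript clusters tested in all, and none lay among the dimmest 40% of clusters. AGS cells, a human gastric adenocarcinoma line, received either CTNNB1 siRNA, which silences beta-catenin, or control siRNA (both from Dharmacon), and total RNA was taken 48 hours after transfection. Each group held 3 arrays (Affymetrix Human Gene 1.0 ST), called biological replicates in their titles; every array is of the same single cell line, and no untransfected cells were analysed here.

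DNA replication starts from origins that are licensed in G1, when the origin recognition complex, CDC6 and CDT1 load the MCM2-7 helicase onto DNA. In S phase CDC45 and the GINS complex join MCM2-7 to form the active helicase, primase and polymerase alpha start each strand, and polymerases delta and epsilon extend it with the PCNA clamp and its loader. Many of these genes are transcribed together at the G1/S boundary by E2F factors once the RB protein is phosphorylated, and in gut epithelium MYC and cyclin D1, known targets of beta-catenin, act upstream of that step.

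Promoter sequences are given for some members because E2F sites are a well known feature of such promoters and the list of genes was not defined by sequence. RefSeq promoters (GRCh38.p14, 250 bases before to 50 after the start) matched 38 of the 44 genes; 8 of these have further starts, and the one listed first was used. An E2F site, searched on both strands as TTTCGCGC, TTTGGCGC or TTTCCCGC, lay in 22 of the 38 promoters (57.9%), against 2.79% of all 27305 genes with a promoter in the table and 3.83% of the 14239 that were tested on the array. A CCAAT box, searched as CCAAT on both strands, lay in 57.9% of member promoters against 36.3% of tested ones, and the cell cycle homology region of mitotic genes, searched as TTTGAA on both strands, in 2.6% against 11.9%. The motifs can overlap, as the E2F match and the CCAAT box do in MCM7. A match is a description of letters in the window and does not show that a factor binds.

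The stretches below are 48 bases around the match (in capitals, as TTTCGCGC, TTTGGCGC or TTTCCCGC or as its reverse complement). They are given for every member with a match whose groups were apart and lower, but for only some of those that overlapped. The set shown is therefore not an even sample of the 22 members with a match. Among the members shown, values of DTL, POLE, POLE2, POLA1 and GINS1 did not overlap between control and CTNNB1 siRNA arrays. Those of MCM7, CDC6, PCNA and RFC3 did overlap. ORC1, CDC45, RFC2, RFC5 and RRM1 were also lower without overlap, but no match was found in their promoters. POLD3, lower without overlap as well, had no promoter to search. Of all clusters, 6.8% were lower without overlap, and a link between match and difference was not tested. The stretches are written 5′ to 3′ on the gene's strand, and the position of the first matched base is counted from the start of transcription. MCM7 holds a further match, which begins at -187 and is not shown. The match begins at -8 in DTL (chr1:212035720-212035767, plus strand), -18 in POLE (chr12:132687333-132687380, minus strand), -5 in POLE2 (chr14:49688192-49688239, minus strand), -137 in POLA1 (chrX:24693761-24693808, plus strand), 6 in GINS1 (chr20:25407658-25407705, plus strand), -9 in MCM7 (chr7:100101379-100101426, minus strand), 8 in CDC6 (chr17:40287866-40287913, plus strand), -59 in PCNA (chr20:5126654-5126701, minus strand) and -55 in RFC3 (chr13:33818074-33818121, plus strand).
DTL: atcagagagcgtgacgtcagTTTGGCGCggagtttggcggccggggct
POLE: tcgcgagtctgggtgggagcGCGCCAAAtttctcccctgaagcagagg
POLE2: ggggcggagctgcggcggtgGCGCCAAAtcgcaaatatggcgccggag
POLA1: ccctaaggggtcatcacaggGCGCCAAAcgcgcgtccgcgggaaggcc
GINS1: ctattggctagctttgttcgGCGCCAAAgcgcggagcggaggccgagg
MCM7: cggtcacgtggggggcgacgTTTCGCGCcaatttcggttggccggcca
CDC6: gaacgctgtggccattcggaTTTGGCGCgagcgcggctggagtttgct
PCNA: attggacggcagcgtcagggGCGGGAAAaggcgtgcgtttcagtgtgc
RFC3: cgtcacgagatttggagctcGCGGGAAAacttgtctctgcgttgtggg

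The MCM6 promoter (chr2:135876394-135876693, minus strand) is shown whole because it holds 4 overlapping matches in 2 places, each place with one match on either strand, the most among the 38 promoters searched at the start listed first.
MCM6: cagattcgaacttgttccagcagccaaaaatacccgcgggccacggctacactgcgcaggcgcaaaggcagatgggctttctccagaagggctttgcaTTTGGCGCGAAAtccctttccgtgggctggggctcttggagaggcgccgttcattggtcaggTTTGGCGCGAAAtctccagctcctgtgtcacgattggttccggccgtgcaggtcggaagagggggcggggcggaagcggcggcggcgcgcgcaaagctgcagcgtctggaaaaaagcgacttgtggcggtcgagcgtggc

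Some facts of the whole data set bear on every value below. CTNNB1 itself was 11.92, 11.76 and 11.75 on the controls and 10.27, 10.78 and 10.58 after its siRNA, a log2 difference of -1.27 (SE 0.17, limma adjusted p = 0.232), so the order of the arrays matched the labels although the gene did not pass the test. One array, CTNNB1 siRNA replicate 1, was unlike the rest: across transcript clusters it correlated with them at 0.962 to 0.965, while all other pairs reached 0.983 to 0.988. The epithelial markers EPCAM, KRT8, KRT18 and KRT19 lay between 9.82 and 13.18, while CDH1 lay between 6.40 and 7.22. The mean of these 5 markers was 10.14 to 10.43 on controls and 10.49 to 10.97 after CTNNB1 siRNA, apart between the groups. Taken singly, only KRT19 was apart, with a difference of 0.96. KRT8, KRT18, EPCAM and CDH1 differed by 0.51, 0.49, 0.13 and 0.016 with overlap. The part of this mean in the results below was not tested. Of 13 measured markers of immune cells, fibroblasts and endothelium, CD68 and COL1A1 lay between 6.40 and 8.85, and the others, PTPRC, CD3E and PECAM1 among them, at 2.21 to 5.32. After CTNNB1 siRNA, CD68 was higher by 0.53 with overlap, and COL1A1 and PECAM1 by 0.36 and 0.39 with groups apart (limma adjusted p = 0.816 for each). CD3E was higher by 0.064 with groups apart. The endothelial markers VWF and KDR went the other way, with differences of -0.16 and -0.14 and groups apart, and CDH5 differed by 0.13 with overlap. Over all arrays the mean of the 4 immune markers was 4.69 to 4.86 on controls and 4.82 to 5.09 after CTNNB1 siRNA, that of the 5 fibroblast markers 4.20 to 4.40 and 4.36 to 4.41, and that of the 4 endothelial markers 3.99 to 4.04 and 3.97 to 4.21. The part of these markers in the results was not tested. All values are log2 expression, differences are CTNNB1 siRNA minus control siRNA, and the number of arrays limits their precision.

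Taken over the list, DNA replication genes had lower means after CTNNB1 siRNA, but no single gene passed the test across all genes. The mean was lower for 38 of 44 members and higher for 6, where 50.8% of all tested clusters were lower and 52.1% of the 11085 genes that are not dim. The median log2 difference was -0.26 over the members and -0.0052 over all genes. Of the members, 11 were lower on all 3 CTNNB1 siRNA arrays than on any control array, against 6.8% of all clusters (8.25% of the genes that are not dim), and 0 were higher in this way. In limma, 0 members had an adjusted p under 0.05, a rule that called 0.00514% of clusters, that is, 1 gene. At an unadjusted limma p under 0.05 there were 8 lower members and 0 higher, against 2.6% of clusters that were lower. A lower level in such an RNA pool can come from fewer cells in S phase or from less RNA per cell, which cannot be told apart here.

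Averaged over the 44 genes, the controls (replicates 1 to 3) had log2 values of 8.10, 7.73 and 7.88. The corresponding values after CTNNB1 siRNA were 7.82, 7.55 and 7.57. The groups overlapped, because CTNNB1 siRNA replicate 1 lay above control replicate 2. Within either group the array numbered 1 was the highest. Control replicate 1 held the highest of the 6 values for 23 members, where 17.9% of all genes had their highest value on that array, and it lay above both other controls for 31 members, against 33.7% of all genes. The lowest value lay on CTNNB1 siRNA replicate 2 for 15 members and on replicate 3 for 13, against 12.9% and 11.8% of all genes.

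**Figure D1:**
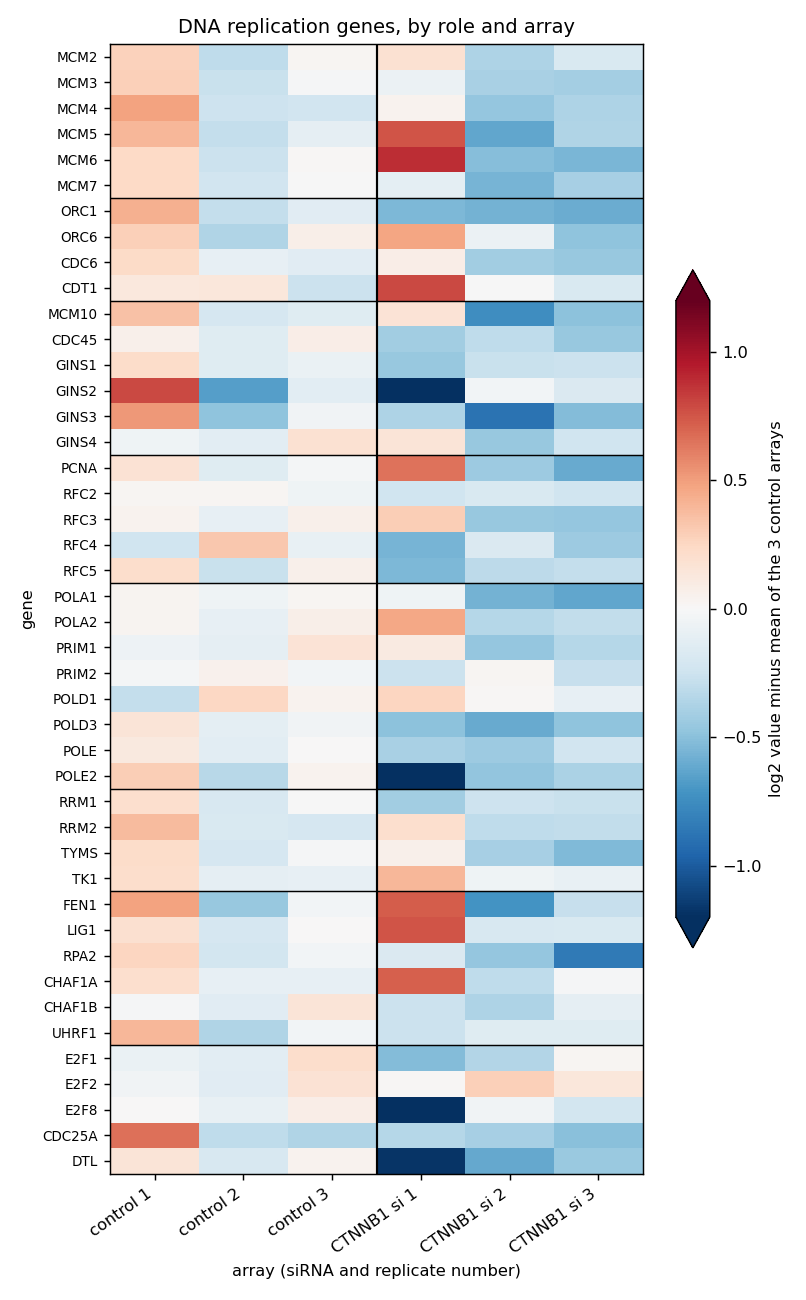
Log2 value of each of the 44 genes (rows, in blocks by role: MCM2-7, licensing, helicase activation, clamp and loader, polymerases and primase, nucleotide supply, lagging strand and chromatin, regulators) on each of the 6 arrays (columns), minus the mean of the 3 control arrays; the colour scale ends at 1.2 in either direction. CTNNB1 siRNA replicates 2 and 3 are blue for most genes, while replicate 1 is red for MCM5, MCM6, PCNA, CDT1, FEN1, LIG1 and CHAF1A among others and deep blue for GINS2, POLE2, E2F8 and DTL.

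CTNNB1 siRNA replicate 1 lay more than 0.5 above the mean of replicates 2 and 3 for 15 members and more than 0.5 below it for 4, where 12.5% and 14.6% of all genes did so. It held the highest of the 6 values for 12 members and the lowest for 10, against 24.6% and 31.4% of all genes, so these counts, and the 4 members far below, are near or under the share over all genes. Replicates 2 and 3 lay within 0.3 of each other for 38 of the 44. The share of all genes that lay this close was not worked out, so the count is not a trait of the members. Without replicate 1, 43 of 44 members had a lower mean (50.4% of all clusters) and the median difference was -0.34. A lower mean was also found for 24 of 25 mitotic genes and 17 of 20 RNA polymerase II and spliceosome genes (lists below). Groups were then apart and lower for 28 members, against 12.5% of clusters, and 17 were lower at an unadjusted limma p under 0.05, against 3.17%. In that fit too 0 members passed in limma after adjustment; the smallest adjusted p was 0.391, for POLA1. The share of members with lower means was thus larger without this array, while the single tests still did not pass.

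The counts also moved with other arrays, and so did the shares over all clusters. Without control replicate 1, 12 members were apart and lower (12.4% of clusters) and 4 were lower at an unadjusted limma p under 0.05 (1.77%). Without control replicate 2 there were 18 (11.7%) and 11 (2.26%), and without control replicate 3 there were 12 (10.9%) and 3 (1.72%). Without CTNNB1 siRNA replicate 2 there were 14 (12.3%) and 6 (3.76%), and without replicate 3 of that group 13 (12.9%) and 5 (3.11%). Leaving out any array thus raised the share of clusters that were apart, and the rise from 11 to 18 members is to be read against that. The number of members with a lower mean stayed between 32 and 43 over the 6 fits that left out 1 array each.

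Origin licensing is the first step. ORC1, the largest subunit of the origin recognition complex, was 7.44, 6.73 and 6.88 on the control arrays and 6.47, 6.45 and 6.42 on the CTNNB1 siRNA arrays (replicates 1 to 3 throughout). The groups did not overlap: the CTNNB1 siRNA values lay close together and control replicate 1 stood above the rest. The log2 difference was -0.57 (SE 0.20), 67.5% of the control level, with a limma adjusted p of 0.816; without control replicate 1 it was -0.35. CDC6, which takes part in loading the helicase, was 9.39, 9.06 and 9.03 on controls and 9.24, 8.74 and 8.71 after CTNNB1 siRNA, with replicate 1 inside the control range. Its difference was -0.26 (SE 0.19), and it was -0.44 without CTNNB1 siRNA replicate 1 and -0.15 without control replicate 1. CDT1, the partner of CDC6 in loading, and ORC6, another subunit of the complex, differed by 0.20 (SE 0.26) and -0.027 (SE 0.27). Both overlapped between groups. CDT1 was 7.38 on CTNNB1 siRNA replicate 1 and 6.33 to 6.72 on every other array.

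The MCM2-7 helicase had 6 of 6 subunits lower in mean, with differences from -0.36 (MCM7) to -0.057 (MCM6), and all 6 overlapped between the groups. MCM7 was 9.23, 8.77 and 8.99 on controls and 8.88, 8.43 and 8.60 after CTNNB1 siRNA, a difference of -0.36 (SE 0.18). MCM3 differed by -0.29 (SE 0.18), MCM4 by -0.26 (SE 0.24) and MCM2 by -0.12 (SE 0.21), and without control replicate 1 these were -0.15, -0.025 and 0.016. MCM6 was 7.99, 7.49 and 7.76 on controls and 8.63, 7.24 and 7.20 after CTNNB1 siRNA. For MCM6, replicates 2 and 3 lay below every control and replicate 1 above every control. MCM5 placed these arrays likewise, with 8.12, 7.43 and 7.61 on controls against 8.47, 7.10 and 7.36. The subunits of this ring therefore did not keep one pattern on CTNNB1 siRNA replicate 1: MCM5 and MCM6 were 1.25 and 1.41 above the mean of replicates 2 and 3 there, and MCM3 and MCM7 0.32 and 0.36. Without that array the differences were -0.53 for MCM6, -0.49 for MCM5, -0.48 for MCM7, -0.42 for MCM4, -0.40 for MCM3 and -0.28 for MCM2. Groups were then apart and lower for 5 of the 6, all but MCM2, against 12.5% of all clusters in that fit. The mean difference over the 6 subunits, -0.19, was -0.43 without that array and -0.035 without control replicate 1.

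**Figure D2:**
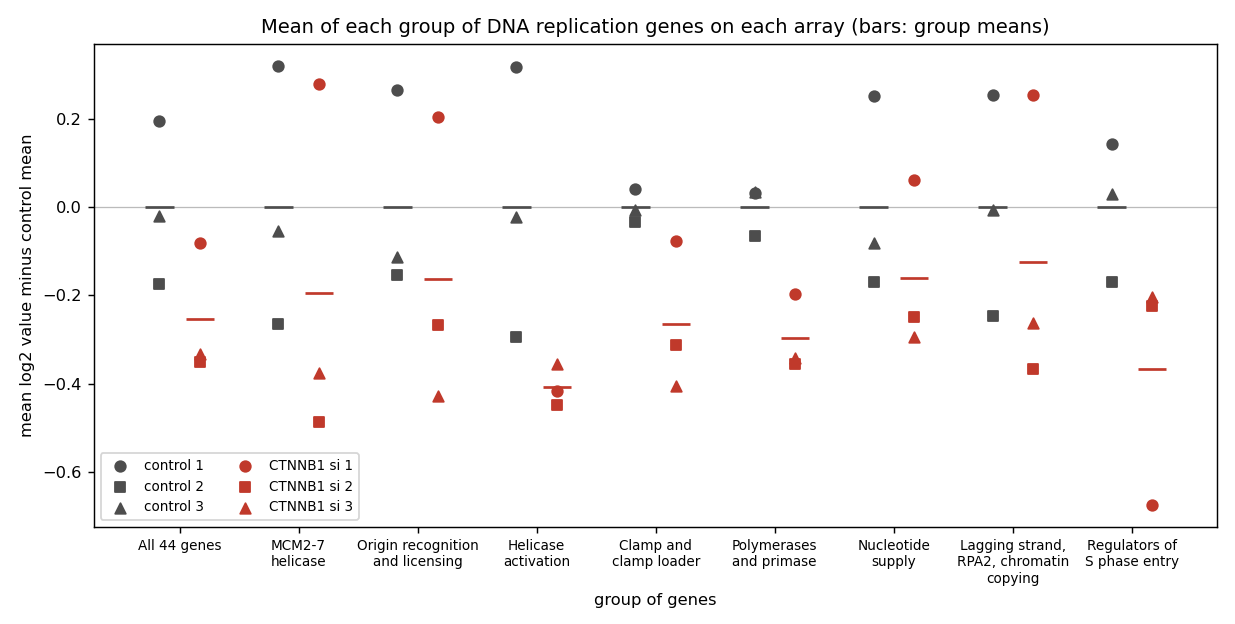
Mean log2 value of each group of genes on each array, minus the mean of the 3 control arrays (grey, control siRNA; red, CTNNB1 siRNA; circle, square and triangle, replicates 1 to 3; bars, means of the 3 arrays). CTNNB1 siRNA arrays lie below all controls for helicase activation, the clamp and its loader, polymerases and primase, and the regulators; replicate 1 lies among the controls for MCM2-7, licensing, nucleotide supply and the lagging strand group.

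Helicase activation had a mean difference of -0.41, with all 6 genes lower in mean. Set against the control mean, the group lay at 0.32, -0.29 and -0.023 on the controls and at -0.42, -0.45 and -0.35 after CTNNB1 siRNA, so the groups were apart, and the difference was -0.25 without control replicate 1. CDC45, which joins MCM2-7 at firing, was 7.65, 7.44 and 7.66 on controls and 7.17, 7.28 and 7.13 after CTNNB1 siRNA. Its groups were apart and the arrays of a group close together, with a difference of -0.39 (SE 0.14) and a limma adjusted p of 0.816. It lay between -0.46 and -0.35 in every fit that left out 1 array. The GINS complex, made of GINS1 to GINS4, was lower for each subunit in mean. GINS1 was 10.47, 10.10 and 10.17 on controls and 9.80, 9.98 and 9.99 after CTNNB1 siRNA, apart by a narrow margin (-0.33, SE 0.15; -0.22 without control replicate 1). GINS3 differed by -0.59 (SE 0.26; -0.33 without control replicate 1) and GINS4 by -0.18 (SE 0.19; -0.041 without CTNNB1 siRNA replicate 2), both with overlap. GINS2 had the widest spread of all members: 8.79, 7.33 and 7.86 on controls against 6.40, 7.96 and 7.82. Its difference of -0.60 (SE 0.48) was -0.10 without CTNNB1 siRNA replicate 1 and so rested on that array. MCM10, which helps the helicase start, was -0.36 (SE 0.26), -0.62 without it and -0.16 without CTNNB1 siRNA replicate 2.

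The polymerases and primase were the group with the least spread between arrays. The mean of its 8 genes was 7.52, 7.42 and 7.52 on controls and 7.29, 7.14 and 7.15 after CTNNB1 siRNA, a difference of -0.30, and 7 of 8 genes were lower. POLD3, an accessory subunit of polymerase delta that takes part in lagging strand synthesis, had the smallest p of the members. It was 7.83, 7.56 and 7.63 on controls and 7.18, 7.07 and 7.19 after CTNNB1 siRNA. Groups were clearly apart, with a difference of -0.53 (SE 0.14), 69.3% of the control level (95% confidence interval of the log2 difference -0.85 to -0.21). Its limma p was 0.0051 before adjustment, rank 101 of 19460, and 0.816 after it, and the smallest adjusted p under any alternative was 0.268.

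Polymerase epsilon, which extends the leading strand, had both of its listed subunits apart between the groups. POLE, the catalytic subunit, was 7.505, 7.265 and 7.395 on controls and 6.997, 6.957 and 7.162 after CTNNB1 siRNA, a difference of -0.35 (SE 0.14). POLE2 was 8.02, 7.39 and 7.76 against 6.53, 7.25 and 7.35. The margin for POLE2 was narrow except on CTNNB1 siRNA replicate 1, and its difference of -0.68 (SE 0.26) was -0.43 without that array. POLA1, the catalytic subunit of polymerase alpha, was 7.02, 6.94 and 7.01 on controls and 6.94, 6.42 and 6.36 after CTNNB1 siRNA. Here replicate 1 lay just under the lowest control, so the difference of -0.42 (SE 0.18) came from replicates 2 and 3, and it was -0.60 without replicate 1. The primase subunits PRIM1 and PRIM2 differed by -0.23 (SE 0.18) and -0.17 (SE 0.14), POLA2 by -0.061 (SE 0.23) and POLD1, the catalytic subunit of polymerase delta, by 0.058 (SE 0.18). All 4 overlapped. Within polymerase delta the 2 subunits thus had unlike values, POLD3 lower on every CTNNB1 siRNA array and POLD1 with control and CTNNB1 siRNA means of 7.42 ± 0.27 (SD, n = 3) and 7.47 ± 0.18 (SD, n = 3).

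**Figure D3:**
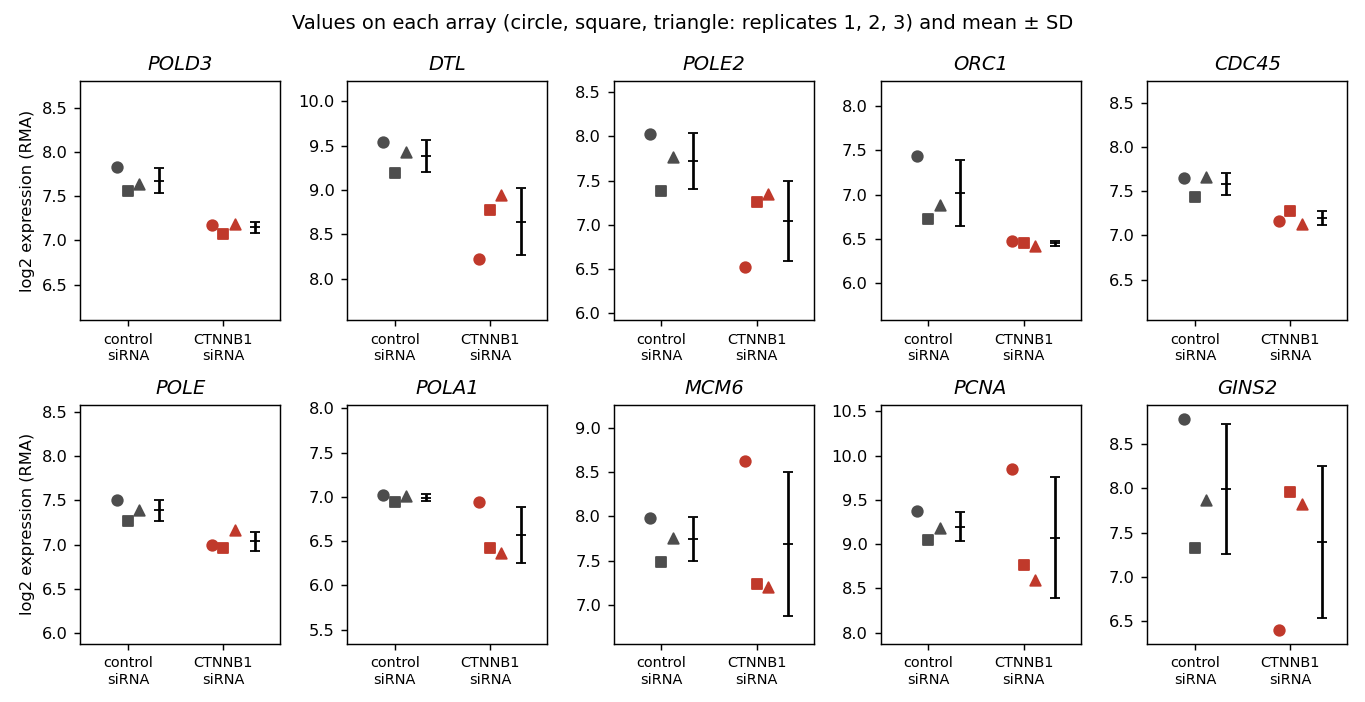
Log2 expression of 10 members on each array (grey, control siRNA; red, CTNNB1 siRNA; circle, square and triangle, replicates 1 to 3) with mean and SD of the 3 arrays in black; each panel spans 2.7 log2 units. POLD3, DTL, POLE2, ORC1, CDC45, POLE and POLA1 are apart between groups, whereas MCM6 and PCNA are high and GINS2 is low on CTNNB1 siRNA replicate 1 alone.

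The clamp and its loader were lower for 5 of 5 genes, with a mean difference of -0.27. The group's mean was 8.90, 8.82 and 8.85 on controls and 8.78, 8.54 and 8.45 after CTNNB1 siRNA, apart by a narrow margin. PCNA, the sliding clamp, was 9.37, 9.05 and 9.18 on controls and 9.85, 8.77 and 8.60 after CTNNB1 siRNA. It was highest of all on CTNNB1 siRNA replicate 1 and lowest on replicates 2 and 3. Its difference of -0.13 (SE 0.31) became -0.52 without replicate 1. The loader subunits RFC2 and RFC5 were apart between the groups, at -0.22 (SE 0.12) and -0.38 (SE 0.17). RFC2 had the smallest SE of the members, with values of 8.57, 8.57 and 8.50 against 8.30, 8.36 and 8.31. RFC4 (-0.39, SE 0.19) and RFC3 (-0.21, SE 0.22) overlapped. RFC4 was -0.23 without control replicate 2, and RFC3 was -0.46 without CTNNB1 siRNA replicate 1 and -0.080 without replicate 3 of that group.

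Nucleotide supply was lower for 3 of 4 genes, with a mean difference of -0.16 and overlap between groups. That mean was -0.035 without control replicate 1 and -0.27 without CTNNB1 siRNA replicate 1. RRM1, the large subunit of ribonucleotide reductase, was 9.41, 9.02 and 9.20 on controls and 8.80, 8.96 and 8.95 after CTNNB1 siRNA, apart by a narrow margin (-0.31, SE 0.15). Its partner RRM2, the subunit whose level follows the cell cycle, differed by -0.13 (SE 0.22). TYMS, thymidylate synthase, differed by -0.29 (SE 0.20), and TK1, thymidine kinase, by 0.086 (SE 0.18). For TYMS replicates 2 and 3 after CTNNB1 siRNA lay below every control (9.66 and 9.53 against 9.85 to 10.27) and replicate 1 (10.11) among them.

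The lagging strand and chromatin group was lower for 4 of 6 genes and had a mean difference of -0.13 (-0.31 without CTNNB1 siRNA replicate 1 and 0.0013 without control replicate 1). RPA2, a subunit of the protein that coats single strands, was 6.81, 6.33 and 6.52 on controls and 6.38, 6.09 and 5.71 after CTNNB1 siRNA. The arrays overlapped only through control replicate 2, and the difference was -0.49 (SE 0.21) with a limma adjusted p of 0.816, and -0.32 without CTNNB1 siRNA replicate 3. FEN1, the flap nuclease, and LIG1, the ligase that joins lagging strand fragments, differed by -0.091 (SE 0.38) and 0.13 (SE 0.27). CHAF1A and CHAF1B, subunits of the factor that places histones on new DNA, differed by 0.13 (SE 0.26) and -0.25 (SE 0.15), and UHRF1, which guides DNA methylation to new strands, by -0.18 (SE 0.20). FEN1, LIG1 and CHAF1A were each highest of all on CTNNB1 siRNA replicate 1 (7.61, 7.86 and 8.25). Without it they differed by -0.50, -0.19 and -0.16.

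The regulators of S phase entry were lower for 4 of 5 genes, with a mean difference of -0.37 that was -0.21 without CTNNB1 siRNA replicate 1. DTL, which directs CDT1 and other proteins to degradation during S phase, had the largest difference of the 44 genes. It was 9.55, 9.19 and 9.43 on controls and 8.22, 8.77 and 8.94 after CTNNB1 siRNA. Groups were apart with replicate 1 lowest, and the difference was -0.75 (SE 0.21), 59.7% of the control level, with a limma p of 0.0079 before and 0.816 after adjustment; without replicate 1 it was -0.53. E2F1, an activator of the S phase programme, was 7.76, 7.71 and 8.04 on controls and 7.31, 7.49 and 7.86 after CTNNB1 siRNA, a difference of -0.28 (SE 0.18) with overlap that was -0.16 without CTNNB1 siRNA replicate 1. E2F2, another activator, differed by 0.15 (SE 0.15) and was the 1 member with a higher mean in the fit without CTNNB1 siRNA replicate 1. E2F8, a repressor of the same programme, was 9.18, 9.09 and 9.25 on controls and 7.83, 9.13 and 8.95 after CTNNB1 siRNA, so its difference of -0.54 (SE 0.32) rested on replicate 1 and was -0.13 without it. CDC25A, the phosphatase that activates CDK2, was -0.42 (SE 0.27) and -0.086 without control replicate 1, the only array on which it stood high (7.79 against 6.62 to 6.82 elsewhere).

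**Figure D4:**
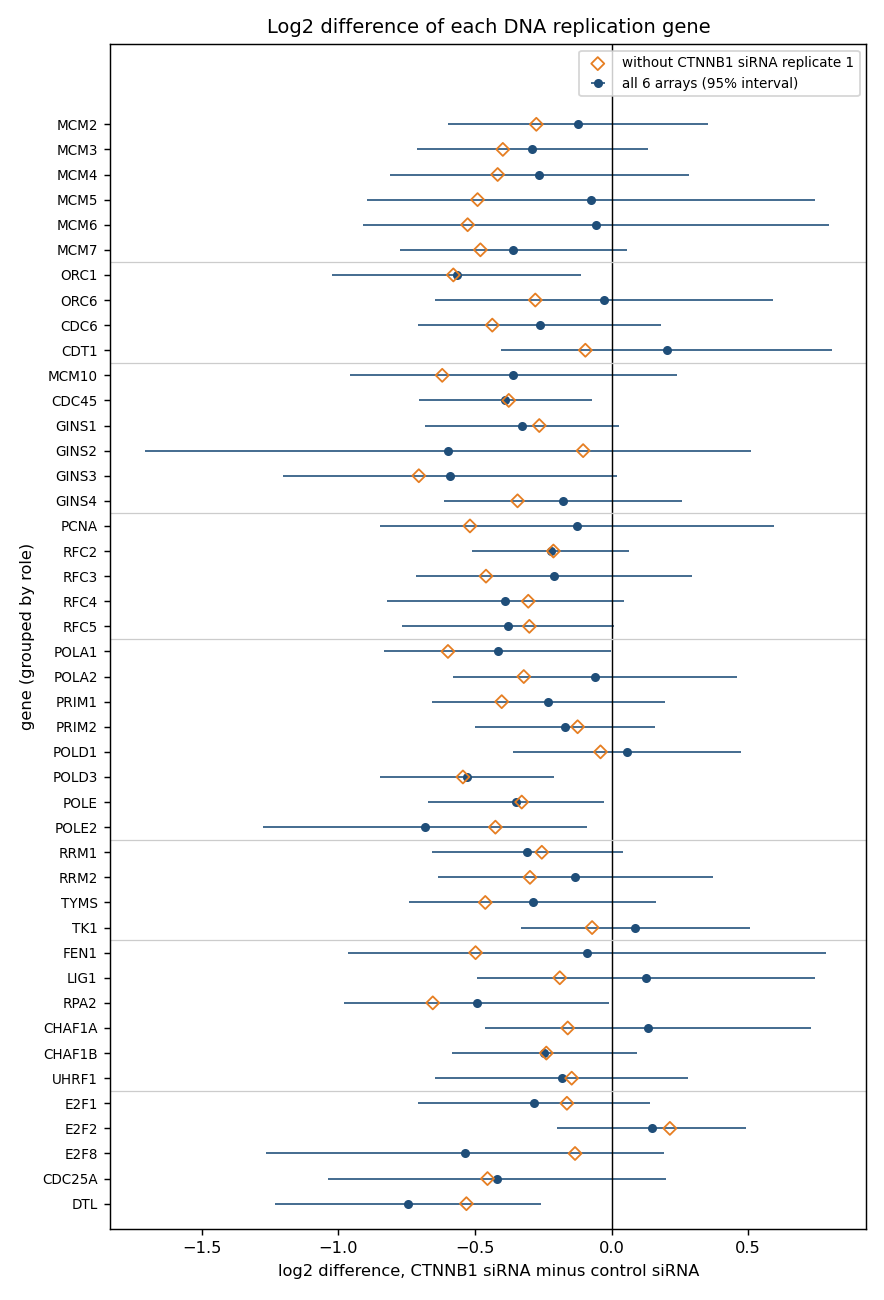
Log2 difference, CTNNB1 siRNA minus control siRNA, of each of the 44 genes with its 95% confidence interval from limma on all 6 arrays (blue) and without CTNNB1 siRNA replicate 1 (orange diamonds, interval not drawn); grey lines separate the roles. POLD3, CDC45, ORC1, RFC2 and POLE keep their place without that array, whereas MCM5, MCM6, PCNA and FEN1 move down and GINS2 and E2F8 move towards 0.

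The differences of 10 members, MCM7, CDC45, RFC2, RFC5, POLA1, POLD3, POLE, RRM1, CHAF1B and DTL, stayed within 1.5 times of the value on all 6 arrays in each of the 6 fits that left out 1 array. Those of the other 34 moved further in at least 1 of these fits. Members with a match to the E2F sequences searched had a median difference of -0.29 (22 genes, 19 lower). Those without such a match had -0.23 (16 genes, 13 lower). Other forms of the site were not searched. Without CTNNB1 siRNA replicate 1 these medians were -0.41 and -0.29. For the CCAAT box the medians on all 6 arrays were further apart, -0.32 with it (22 genes, 21 lower) and -0.15 without (16 genes, 11 lower). Without CTNNB1 siRNA replicate 1 they were -0.39 and -0.26. No sets of promoters were compared by a test.

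Of 56 other genes of replication and of its control by E2F and RB, 55 were measured. In limma 0 of them passed after adjustment; 45 had a lower mean and 10 a higher one, with a median of -0.22, and at an unadjusted p under 0.05 there were 5 lower and 1 higher. The one higher was POLD4, the smallest subunit of polymerase delta, which is itself degraded in S phase: 8.36, 8.78 and 8.86 on controls and 9.22, 9.27 and 9.33 after CTNNB1 siRNA (0.60, SE 0.17). Its groups were apart in the opposite direction to those of POLD3. E2F5, a repressor, differed by -0.50 (SE 0.17), DNMT1, the maintenance DNA methyltransferase, by -0.43 (SE 0.17), and CCNE2, encoding cyclin E2, by -0.69 (SE 0.27). CCNE2 was 8.53 on control replicate 1 and 7.02 to 7.58 elsewhere, and differed by -0.35 without that array. DNMT1 differed by -0.27 without CTNNB1 siRNA replicate 1. The limma adjusted p was 0.816 for each of these 4 genes.

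Lists of genes with other functions also had medians below that of all genes. Of 25 mitotic genes measured, 17 were lower, 6 of them apart, with a median of -0.17; FOXM1 (-0.54, SE 0.19), CDCA8 (-0.36, SE 0.14), KIF11 (-0.33, SE 0.13) and PLK1 (-0.42, SE 0.18) had the smallest p. Of 20 genes of RNA polymerase II and the spliceosome, a reference that does not follow the cell cycle, 15 were lower, 6 of them apart, with a median of -0.22; the smallest p belonged to SF3A1 (-0.38, SE 0.17), SF3A3 (-0.51, SE 0.25), POLR2A (-0.65, SE 0.33) and PRPF8 (-0.42, SE 0.22). Without CTNNB1 siRNA replicate 1 these were -0.23, -0.22, -0.24 and -0.17. In that fit FOXM1 was -0.35, CDCA8 -0.30, KIF11 -0.30 and PLK1 -0.24. In limma 0 genes of either list passed after adjustment, and at an unadjusted p under 0.05 there were 4 lower mitotic genes and 0 reference genes. A lower median was therefore seen in this reference list as well and was not shown to be particular to replication genes. Without CTNNB1 siRNA replicate 1 the medians were -0.34 for the members, -0.19 for the other replication genes, -0.14 for mitotic genes and -0.16 for the reference. In that fit 17 of 44 members, 9 of 55 other replication genes, 1 of 25 mitotic genes and 0 of 20 reference genes were lower at an unadjusted limma p under 0.05. Groups were apart and lower for 28 of 44 members, 21 of 55, 7 of 25 and 9 of 20 genes in the same order, so the reference list, too, lay above the 12.5% of all clusters. Means in that fit were lower for 43 of 44, 45 of 55, 24 of 25 and 17 of 20 genes, again in that order. Most genes of every list were therefore lower there. The differences between lists were not tested.

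**Figure D5:**
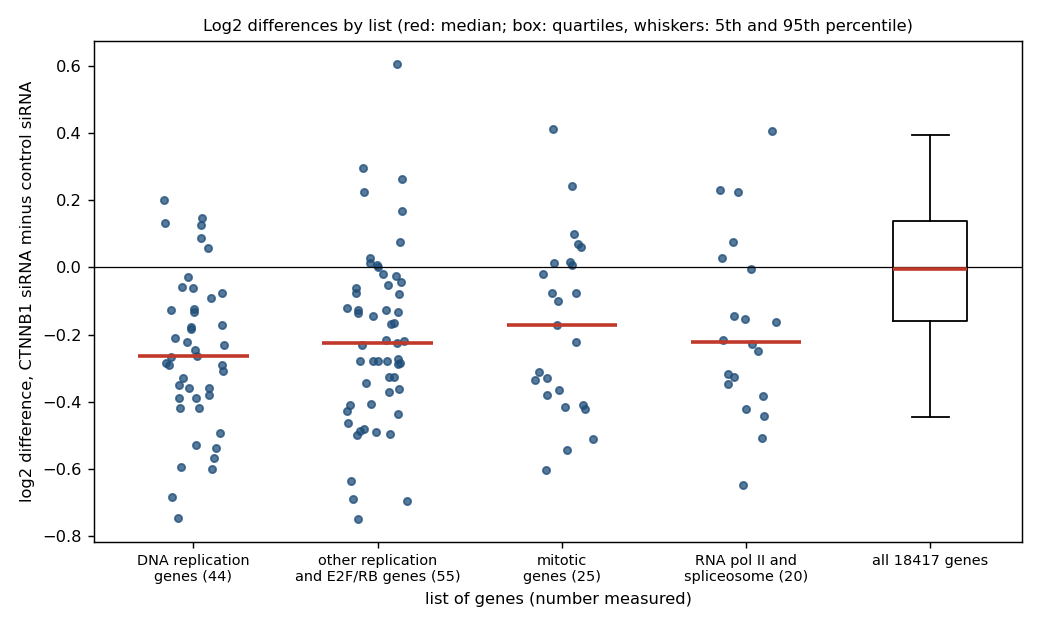
Log2 difference of each gene (points) in 4 lists, with the list's median in red, beside the distribution over all 18417 genes (box, quartiles; whiskers, 5th and 95th percentile at -0.45 and 0.39). The medians of the 4 lists, -0.26, -0.22, -0.17 and -0.22, all lie below that of all genes, and most points lie within the whiskers.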

How the data were processed

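The authors deposited log2 values for each transcript cluster. RMA and Expression Console 1.1 are named in the submitters' processing notes. The annotation and build behind the values: not given in the sources used here. RMA normalises arrays to one distribution, so a change shared by all transcripts is not visible. The log2 scale was read from the range of values (0.919 to 14.3). Per the labels' protocols, 500 ng of total RNA was labelled per array.

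Symbols came from the platform annotation, updated by gene identifier for 19429 of 19460 clusters with 1 symbol; 1754 with several and 12083 with none were left out. Groups were compared with limma 3.58.1 in R 4.3.3 (lmFit, eBayes, 2-sided) with Benjamini-Hochberg adjustment over all 19460 clusters, threshold 0.05, no filter and no block. The titles call the arrays biological replicates, but no label says that they came from separate cultures. If they did not, the p-values may reflect only technical spread. An exact permutation test of 3 arrays against 3 cannot go below 0.1 and was not used. The fit was tested on simulated data, where it found 45.4% of log2 differences of 1 and 90% of those of 2 at the threshold. Smaller differences were not simulated, and the largest of a member was -0.75 (DTL). That no member passed therefore does not show that the members were unchanged. No 2 arrays shared more than 43 identical values.

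All members could be named; of the other lists, up to 4 genes with the smallest p. Members and lists were chosen with earlier results of these data known. Arrays left out in turn, a replicate block, a filter, array weights, centring, quantile normalisation, averaged clusters and a trended prior were tried as alternatives.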

Additional observations from a re-analysis of the deposited data

How the results depend on the processing

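In none of the 13 alternatives did a member pass limma after adjustment; the smallest adjusted p was 0.268. The median difference lay between -0.34 and -0.19 and the number of lower members between 32 and 43. Members apart and lower numbered 12 to 28 when 1 array was left out and 10 to 12 otherwise. Members lower at an unadjusted limma p under 0.05 numbered 3 to 17 when 1 array was left out and 18 with arrays weighted by quality, where CTNNB1 siRNA replicate 1 had a weight of 0.226. The share of all clusters lower at that p was not worked out with weights, so the count of 18 is not a trait of the members. Over all genes, limma called 1 gene, 0 to 10 when 1 array was left out, 13 with weights, and 0 with a replicate block or without the dimmest 40% of clusters. Members whose sign turned when 1 array was left out had these ranges: MCM2 -0.28 to 0.016, MCM5 -0.49 to 0.20, MCM6 -0.53 to 0.19, ORC6 -0.28 to 0.20, CDT1 -0.096 to 0.39, PCNA -0.52 to 0.11, POLA2 -0.32 to 0.081, POLD1 -0.086 to 0.18, RRM2 -0.30 to 0.060, TK1 -0.071 to 0.19, FEN1 -0.50 to 0.22, LIG1 -0.19 to 0.29, CHAF1A -0.16 to 0.35 and UHRF1 -0.36 to 0.017. With weights POLD1 was -0.060, LIG1 -0.11 and CHAF1A -0.076. The cause was not tested. No sign of a member turned with centring, quantile normalisation, averaged clusters, the trended prior or the replicate block.

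The replicate block left the differences as they were and gave 10 members lower at an unadjusted limma p under 0.05 against 8. The share of all clusters with the block was not worked out. The numbers were not taken as pairs: deviations of same-numbered arrays correlated at 0.0922, 0.12 and 0.098 across clusters, though each array correlated best with the one of its own number, which is a hint from the data only. The values of the comparison lists and promoter groups without CTNNB1 siRNA replicate 1, those of single genes outside the 44 and the shares over all clusters with 1 array left out were chosen after seeing the data.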

Other observations

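Promoters of genes outside the list were read for the same motifs. Of 524 tested genes that are not members and hold an E2F site, 60.5% had a lower mean after CTNNB1 siRNA, with a median log2 difference of -0.063, against 51.0% and -0.0057 for 13677 genes without one. Without CTNNB1 siRNA replicate 1 the shares were 63.7% and 50.8% and the medians -0.062 and -0.0036. Groups were apart and lower for 8.4% and 7.04%. A CCAAT box went with 53.4% lower of 5144 genes against 50.1% of 9057, and the cell cycle homology region with 57.7% of 1695 against 50.5% of 12506. These are shares of genes on the same 6 arrays, given without a test; the look at genes outside the list, and the values without CTNNB1 siRNA replicate 1, were added after seeing the data.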
